A study of Mus musculus with 6 samples.

Results

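Cholesterol synthesis was followed through 7 enzyme genes, Hmgcs1, Idi1, Fdps, Sqle, Lss, Cyp51 and Dhcr7, in iWAT, the inguinal white fat under the skin, where beige adipocytes form in the cold. The genes were taken by symbol from a table of 16538 genes, and all 7 were present and passed the filter on low values. RNA-Seq, which counts the sequencing reads that fall on each gene, was available for 3 control samples and 3 samples from adipocyte-specific Nrg4-KO (AKO) mice. AKO mice carry a floxed Nrg4 gene that is deleted by a Cre driven from the Adiponectin promoter, so that the deletion is restricted to adipocytes. The controls are labelled wt, and the study's text describes the cold-exposed controls of AKO mice as fl/fl in one place and WT in another. Mice of both groups were kept at 8°C, for 10 days by the sample labels. The study's text gives a somewhat longer stay. Each sample held RNA pooled from 2 mice of the same genotype, and sex and age were not given for these mice in the labels. The comparison asks whether transcripts of cholesterol synthesis differ in iWAT of cold-acclimated mice between the AKO genotype and controls. NRG4 is a hormone secreted by fat.

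Cells build cholesterol from acetyl-CoA. HMG-CoA synthase (Hmgcs1) starts the mevalonate pathway, isopentenyl diphosphate isomerase (Idi1) and farnesyl diphosphate synthase (Fdps) assemble the isoprenoid chain, and squalene epoxidase (Sqle) commits squalene to sterols. Lanosterol synthase (Lss) closes the rings, and lanosterol 14α-demethylase (Cyp51) and 7-dehydrocholesterol reductase (Dhcr7) carry out later steps, of which the reduction by Dhcr7 can be the last. When sterols in the endoplasmic reticulum are scarce, SCAP escorts SREBP-2 (Srebf2) to the Golgi for cleavage, and the freed factor activates these genes together, whereas INSIG proteins hold it back when sterols are plentiful. Adipocytes hold a large store of cholesterol, most of it unesterified, in and around the lipid droplet. Mitochondrial HMG-CoA synthase, which makes ketone bodies, is the product of another gene and is not meant here.

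SREBP proteins bind sterol regulatory elements (SREs), commonly beside boxes for NF-Y and Sp1. Promoter windows of RefSeq (GRCm38.p6) running from 250 bases before to 50 bases after a transcription start were held for Hmgcs1, Idi1, Lss, Cyp51 and Dhcr7, 5 of the 7 genes. They were searched on both strands for TCACNCCAC (SRE), CCAAT (NF-Y box), GGGCGG (GC box, bound by Sp1) and TCACGTGA (a palindromic E-box that SREBPs can also bind). The SRE letters occurred in 1 of the 5 genes, Hmgcs1, and in 1.24% of all 32851 windows of that length. NF-Y boxes occurred in all 5 genes (37.4% of all windows), and GC boxes in all 5 (35.7% of all windows). These counts are of genes and the shares are of windows. The 5 genes had 7 windows, and a gene with more windows has more chances to match. The E-box letters occurred in none of the 5, and in 0.974% of all windows. The 180 bases before the start are shown 5′ to 3′ on the gene's strand, to place the matches beside the genes described. Capitals mark the matches, none of which overlap. The stretches lie at chr13:119690171-119690350 (plus strand) for Hmgcs1, chr13:8885426-8885605 (plus strand) for Idi1, chr10:76531425-76531604 (plus strand) for Lss and chr5:4104698-4104877 (minus strand) for Cyp51. For Dhcr7, which has 3 windows, the most upstream one is shown, at chr7:143822987-143823166 (plus strand), whereas its NF-Y boxes lie in another.
Hmgcs1: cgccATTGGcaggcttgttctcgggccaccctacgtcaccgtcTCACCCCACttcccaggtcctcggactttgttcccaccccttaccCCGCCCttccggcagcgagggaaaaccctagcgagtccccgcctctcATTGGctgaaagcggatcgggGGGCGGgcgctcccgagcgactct
Idi1: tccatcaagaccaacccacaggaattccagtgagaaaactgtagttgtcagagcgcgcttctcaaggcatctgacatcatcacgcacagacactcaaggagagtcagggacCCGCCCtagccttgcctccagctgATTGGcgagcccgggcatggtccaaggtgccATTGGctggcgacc
Lss: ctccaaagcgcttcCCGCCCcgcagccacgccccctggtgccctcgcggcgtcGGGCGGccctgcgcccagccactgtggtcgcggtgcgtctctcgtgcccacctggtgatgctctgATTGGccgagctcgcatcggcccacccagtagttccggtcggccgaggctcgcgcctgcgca
Cyp51: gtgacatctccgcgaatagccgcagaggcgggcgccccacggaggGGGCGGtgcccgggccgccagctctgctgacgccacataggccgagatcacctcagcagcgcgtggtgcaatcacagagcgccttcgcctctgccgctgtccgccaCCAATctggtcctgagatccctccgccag
Dhcr7: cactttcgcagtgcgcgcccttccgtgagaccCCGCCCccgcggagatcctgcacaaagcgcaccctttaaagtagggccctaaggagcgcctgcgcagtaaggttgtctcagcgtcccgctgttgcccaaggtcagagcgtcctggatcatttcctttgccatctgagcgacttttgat
Counted from the transcription start, the SRE match of Hmgcs1 begins at -137 and the nearest upstream NF-Y box at -45. A match is a description of the letters, and binding was not measured.

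The libraries were of similar depth, with 17570335 to 18373707 reads on the listed genes. Values are the authors' normalized counts, meaning reads divided by a size factor for each sample. Nrg4 had 3128, 3102 and 3092 normalized counts in control and 2577, 2627 and 2691 in AKO, or 15.3% less over the whole gene (adjusted p = 0.298, limma). All AKO samples lay below all control samples, but most of the Nrg4 reads remained. Counts over the whole gene do not separate deleted exons from the rest, so by themselves they do not show the loss that the label names. By qPCR, the study found Nrg4 mRNA to be almost missing from iWAT of AKO mice. The 8 adipocyte markers checked (among them Adipoq, Plin1 and Lipe) were abundant in all samples, at a summed 539505 to 586251 normalized counts in control and 468752 to 534388 in AKO. Of these 8, 7 had a log2 fold change of AKO over control below 0 and 1 above it. Other cells were present in amounts that differed between samples. The sum of 12 skeletal muscle markers ran from 175 to 27263 in control and from 20124 to 118192 in AKO. The sum of 10 epithelial markers ran from 53.8 to 1650 (control) and from 264 to 2561 (AKO), and 6 of these 10 were at 0 in control replicate 2. For 9 lymphocyte markers the sums were 178 to 1073 in control and 160.0 to 1533 in AKO, with the highest in control replicate 1 and AKO replicate 2. For 9 macrophage markers they were 11431 to 16321 in control and 14128 to 19570 in AKO, and for 7 progenitor markers 21394 to 29390 in control and 27185 to 34980 in AKO. All 9 macrophage and all 7 progenitor markers had a log2 fold change above 0, against 51.9% of all genes tested. Of the progenitor markers, limma called 0 and DESeq2 called 1. The part of these differences in cell content in the results was not tested. In bulk tissue, fewer cells of a type and less RNA per cell cannot be told apart.

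Hmgcs1 was by far the most abundant of the 7 transcripts per exon length, and Idi1 the least. On the scale of normalized counts per kilobase of annotated exon (all exons of GENCODE M21, GRCm38), the level of Hmgcs1 was 817 ± 59.0 (SD, n = 3) in control iWAT and 692 ± 93.0 (SD, n = 3) in AKO iWAT. Cyp51 followed with a level of 263 ± 24.1 per kilobase (SD, n = 3) in control, which was 3.10-fold below Hmgcs1, and Dhcr7 with 104 ± 8.41 (SD, n = 3). Sqle, Fdps and Lss had similar levels in control, at 81.1 ± 8.13, 78.7 ± 18.2 and 74.0 ± 11.2 per kilobase (SD, n = 3 each), and the ranges of these neighbors over the 6 samples overlapped. Idi1 was 8.97-fold below Lss, at 8.24 ± 1.11 per kilobase (SD, n = 3). The ranges did not overlap between Hmgcs1 and Cyp51, Cyp51 and Dhcr7, Dhcr7 and Sqle, or Lss and Idi1. The order in the middle depends on the length used. Per kilobase of the principal transcript alone, Fdps (control mean 239) stood between Cyp51 (296) and Dhcr7 (216), above Lss (171) and Sqle (163), while Hmgcs1 (1084) stayed at the top and Idi1 (9.55) at the bottom.

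**Figure D1:**
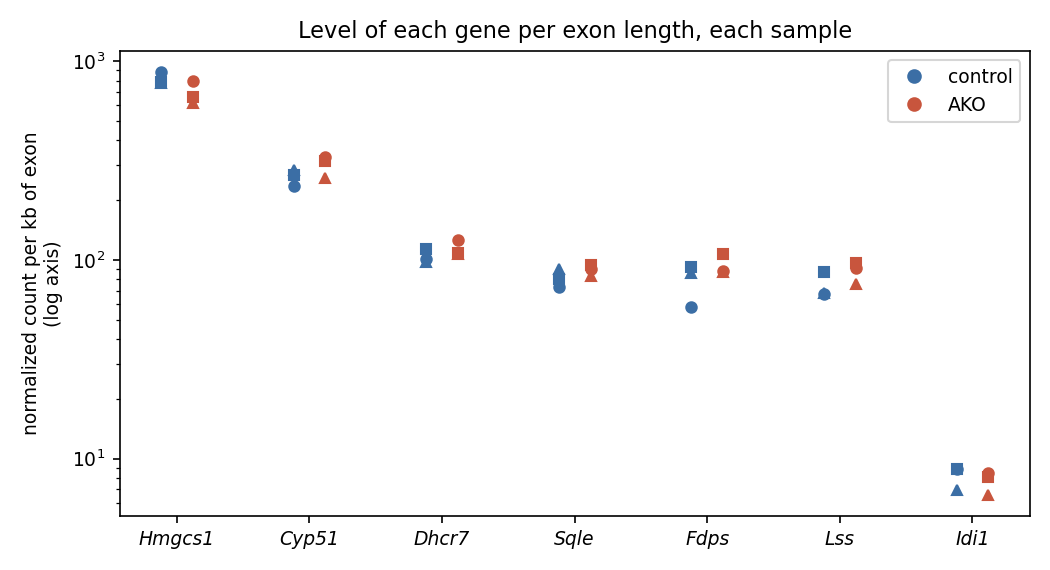
Normalized count per kilobase of annotated exon (log axis) for each gene in the 3 control samples (blue) and 3 AKO samples (red), with 1 point per sample (circle, square and triangle for replicates 1, 2 and 3). Hmgcs1 lies between 616 and 885 in the 6 samples, above every other gene, and Idi1 between 6.60 and 8.90, below every other gene.

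None of the 7 genes passed the threshold between AKO and control, and the groups overlapped for all 7. Groups without overlap were found for 14.5% of all genes tested (8.31% lower and 6.14% higher in AKO). With limma on log2(normalized count + 1), 0 of the 7 had a Benjamini-Hochberg adjusted p under 0.05 over the 13855 genes tested, against 0.0144% of all genes. Before adjustment, 1 of the 7 (Hmgcs1, lower in AKO) had a p under 0.05, against 9.1% of all genes tested (4.69% lower and 4.41% higher in AKO). DESeq2, edgeR and limma-voom, run on the recovered reads, likewise called 0 of the 7 (0.998% of all genes for DESeq2 and 0.0216% for edgeR). The log2 fold changes lay between -0.25 (Hmgcs1) and 0.28 (Fdps), with a median of 0.14, against a median of 0.01 over all genes tested. The log2 fold change was above 0 for 5 of the 7 and for 51.9% of all genes. For single values, the smallest p that an exact permutation test (2-sided) allows with 3 and 3 samples is 0.1.

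**Figure D2:**
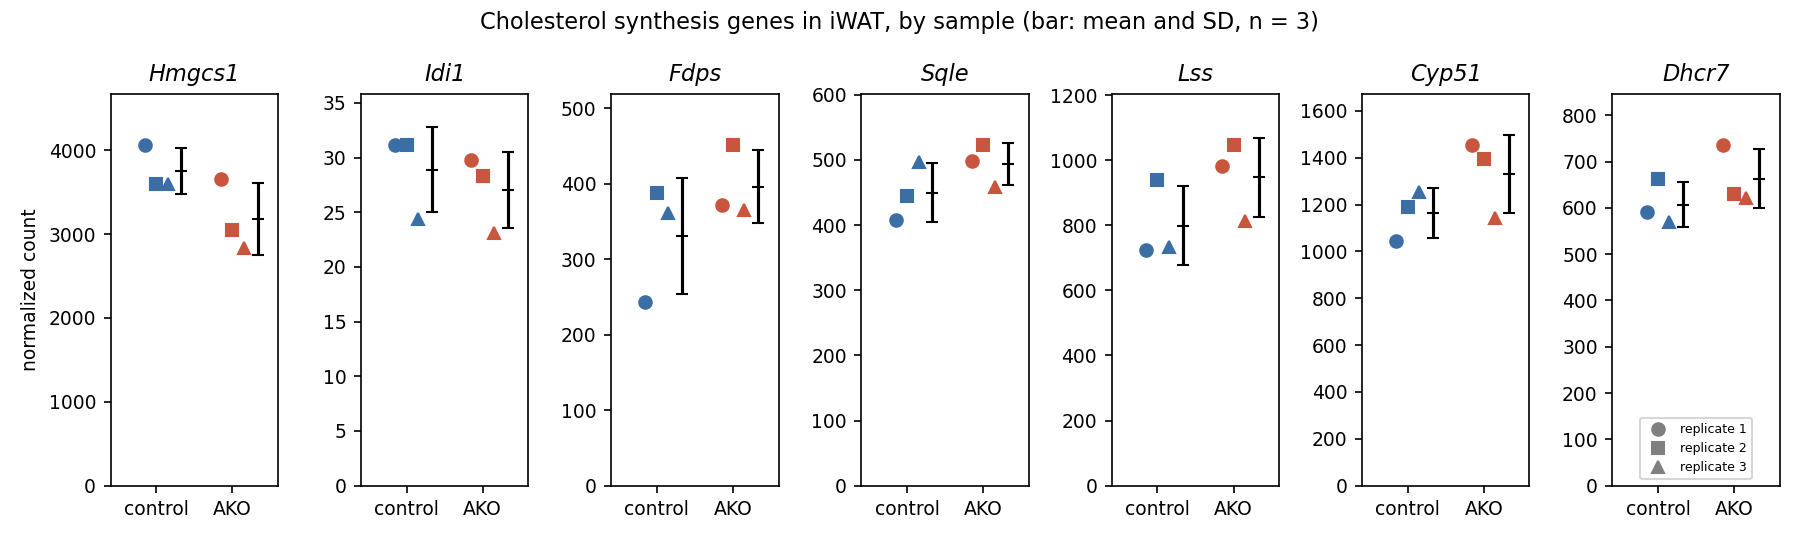
Normalized counts of the 7 genes in control (blue) and AKO (red) iWAT, on linear axes that start at 0, with 1 point per sample and black bars for the mean and SD of each group (n = 3). The points of the groups overlap in every panel, and Hmgcs1 and Idi1 are the genes whose AKO mean lies below the control mean.

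Hmgcs1 (ENSMUSG00000093930, chr13:119690379-119708260 of GRCm38, plus strand) had 4067, 3604 and 3592 normalized counts in control and 3655, 3044 and 2832 in AKO. AKO replicates 2 and 3 lay below all controls, and AKO replicate 1 lay among them. Control samples averaged 3754 ± 271 and AKO samples 3177 ± 427 (SD, n = 3 each), or 15.4% less (p = 0.3, exact permutation test). Fitted on the log2 scale, the change was -0.25 (limma, standard error [SE] 0.10, adjusted p = 0.538), and the 95% interval ran from 0.715 to 0.993 of the control level. Leaving out 1 sample at a time kept it between -0.35 and -0.17. An antisense gene, Gm48342, covers 12.1% of the exonic bases of Hmgcs1, and the sources used here do not say whether counting used strand.

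The isoprenoid steps gave the least certain values. Idi1 (ENSMUSG00000058258, chr13:8885501-8892451, plus strand) had 31.1, 31.2 and 24.4 normalized counts in control and 29.8, 28.3 and 23.1 in AKO. The lowest sample of each group was replicate 3, and the groups overlapped almost entirely. The means were 28.9 ± 3.90 and 27.1 ± 3.48 (SD, n = 3 each), with a log2 fold change of -0.09 (limma, SE 0.23, adjusted p = 0.946). With 1 sample left out, the log2 fold change ran from -0.20 to 0.015, so that its direction was not stable. Only 24 to 31 reads per sample lay on the gene, and the spread between samples (13.5% of the mean in control) was below the 18.9% expected from counting alone, so that these SDs understate the error. Of the 50-base words in its annotated transcripts, 25.3% also occur in transcripts of other genes, most of them in Gm13502 (17.7%), so that reads could have been split or dropped between these copies. The 95% interval of the AKO level, from 0.650 to 1.36 times control, was the widest of the 7 on the log2 scale.

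Fdps (ENSMUSG00000059743, chr3:89093588-89101959, minus strand) had 244, 388 and 361 normalized counts in control and 372, 452 and 365 in AKO. Control replicate 1 stood below the other 5 samples, which lay between 361 and 452. Control samples averaged 331 ± 76.7 and AKO samples 396 ± 48.3 (SD, n = 3 each; p = 0.4, exact permutation test). Fitted on the log2 scale, the change was 0.28 (limma, SE 0.18, adjusted p = 0.689), with a 95% interval from 0.914 to 1.62 times control. It was 0.08 without control replicate 1 and 0.41 without control replicate 2. Control replicate 1 also had the lowest summed muscle, macrophage and progenitor markers of the 6, whose part was not tested. Gm43738 lies on the same strand and covers 26.7% of the exonic bases of Fdps, and reads in that part are ambiguous between the genes.

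Sqle (ENSMUSG00000022351, chr15:59315077-59331192, plus strand) had 407, 444 and 497 normalized counts in control and 498, 523 and 459 in AKO. AKO replicates 1 and 2 lay above all controls, the former barely, and AKO replicate 3 lay among them. Its means were 449.5 ± 45.1 and 494 ± 32.5 (SD, n = 3 each), a log2 fold change of 0.14 (limma, SE 0.10, adjusted p = 0.726). Lss (ENSMUSG00000033105, chr10:76531588-76557138, plus strand) had 724, 938 and 733 normalized counts in control and 982, 1048 and 813 in AKO. Again AKO replicates 1 and 2 were the highest, and control replicate 2 came above AKO replicate 3. Its means were 798 ± 121 (SD, n = 3) and 948 ± 121 (SD, n = 3), a log2 fold change of 0.25 (limma, SE 0.13, adjusted p = 0.610) with a 95% interval from 0.966 to 1.46 times control.

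Of the late enzymes, Cyp51 (ENSMUSG00000001467, chr5:4081145-4104746, minus strand) had 1046, 1189 and 1253 normalized counts in control and 1456, 1395 and 1143 in AKO. AKO replicates 1 and 2 lay above all controls, and AKO replicate 3 below 2 of them. The means were 1163 ± 106 (SD, n = 3) and 1331 ± 166 (SD, n = 3), with a log2 fold change of 0.19 (limma, SE 0.11, adjusted p = 0.651). Dhcr7 (ENSMUSG00000058454, chr7:143823145-143848410, plus strand) had 590.1, 662 and 569 normalized counts in control and 737, 631 and 622 in AKO. Here 1 AKO sample, replicate 1, lay above all controls. The means were 607 ± 48.9 and 663 ± 63.8 (SD, n = 3 each), with a log2 fold change of 0.13 (limma, SE 0.09, adjusted p = 0.753). The 95% intervals reached 1.36 times control for Cyp51, 1.28 for Sqle and 1.27 for Dhcr7 at the upper end, and 0.960, 0.943 and 0.937 at the lower end. With 1 sample left out, the log2 fold change of Sqle ran from 0.07 (without control replicate 1) to 0.21 (without control replicate 3). That of Lss ran from 0.17 (without AKO replicate 2) to 0.37 (without control replicate 2). For Cyp51 it ran from 0.12 (without control replicate 1) to 0.30 (without AKO replicate 3), and for Dhcr7 from 0.05 (without AKO replicate 1) to 0.19 (without control replicate 2). Exact permutation tests gave p = 0.2 for Sqle and Lss, 0.3 for Cyp51 and Dhcr7, and 0.5 for Idi1.

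The samples were not ordered alike by all 7 genes. Fdps, Sqle, Lss and Cyp51 each had their lowest value in control replicate 1, where Hmgcs1 had its highest. Fdps, Sqle and Lss were highest in AKO replicate 2, whereas Cyp51 and Dhcr7 were highest in AKO replicate 1. Hmgcs1 and Idi1 were lowest in AKO replicate 3. In log2 units, Hmgcs1 minus the mean of the other 6 genes (each centered on its mean over the samples) was 0.44, 0.01 and 0.14 in control and -0.06, -0.34 and -0.20 in AKO. This difference separated the groups, but it was chosen after the values were seen and was not tested. Among all single genes, 14.5% separated the groups, but that is not the share for differences between genes chosen in this way.

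**Figure D3:**
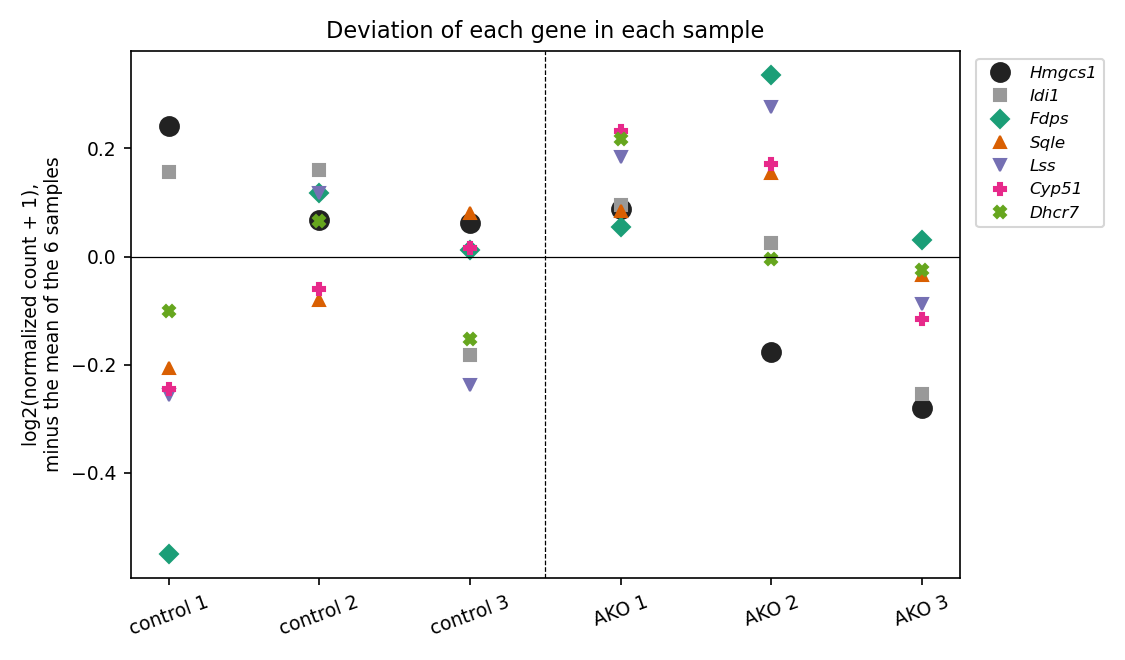
Deviation of each gene from its own mean over the 6 samples, on the log2(normalized count + 1) scale, with 1 marker per gene and sample and large black circles for Hmgcs1. In control replicate 1, Hmgcs1 is at 0.24 and Fdps at -0.55, and in AKO replicate 2, Hmgcs1 is at -0.18 and Fdps at 0.34.

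The other enzymes of the pathway gave small differences too. Of 12 listed enzymes beside the 7, 10 had a log2 fold change above 0 and 2 below it (Acat2 at -0.09 and Ebp at -0.01, the latter above 0 with TMM or CPM scaling), with a median of 0.10. With limma 0 of the 12 passed after adjustment and 1 had a p under 0.05 before it (4.41% of all genes, higher in AKO), and DESeq2, edgeR and limma-voom called 0. That gene, Mvd, which makes isopentenyl diphosphate from mevalonate diphosphate, had 286, 234 and 310.0 normalized counts in control and 399, 345 and 342 in AKO. All AKO samples lay above all controls. Its log2 fold change of 0.39 (limma, SE 0.12, adjusted p = 0.450) was the largest of the 19 enzymes in either direction. Lbr, a sterol reductase of the nuclear envelope, also did not overlap between the groups, with 373, 326 and 312 normalized counts in control and 405, 375 and 381 in AKO (log2 fold change 0.20, limma adjusted p = 0.564). Groups without overlap were thus found for 2 of the 12, against 14.5% of all genes tested. Mvk, Fdft1 and Sc5d, which act early, at squalene formation and late, had log2 fold changes of 0.16, 0.17 and 0.20, and their groups overlapped. Pmvk, Tm7sf2, Msmo1, Nsdhl and Hsd17b7 lay between 0.03 and 0.13. Over the 19 enzymes, 15 (78.9%) had a value above 0, against 51.9% of all genes tested. Enzymes of a pathway are not independent of each other, and no test was made of this share. Scaled to library totals without size factors (CPM), 16 of the 19 were above 0, as were 68.5% of all genes.

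**Figure D4:**
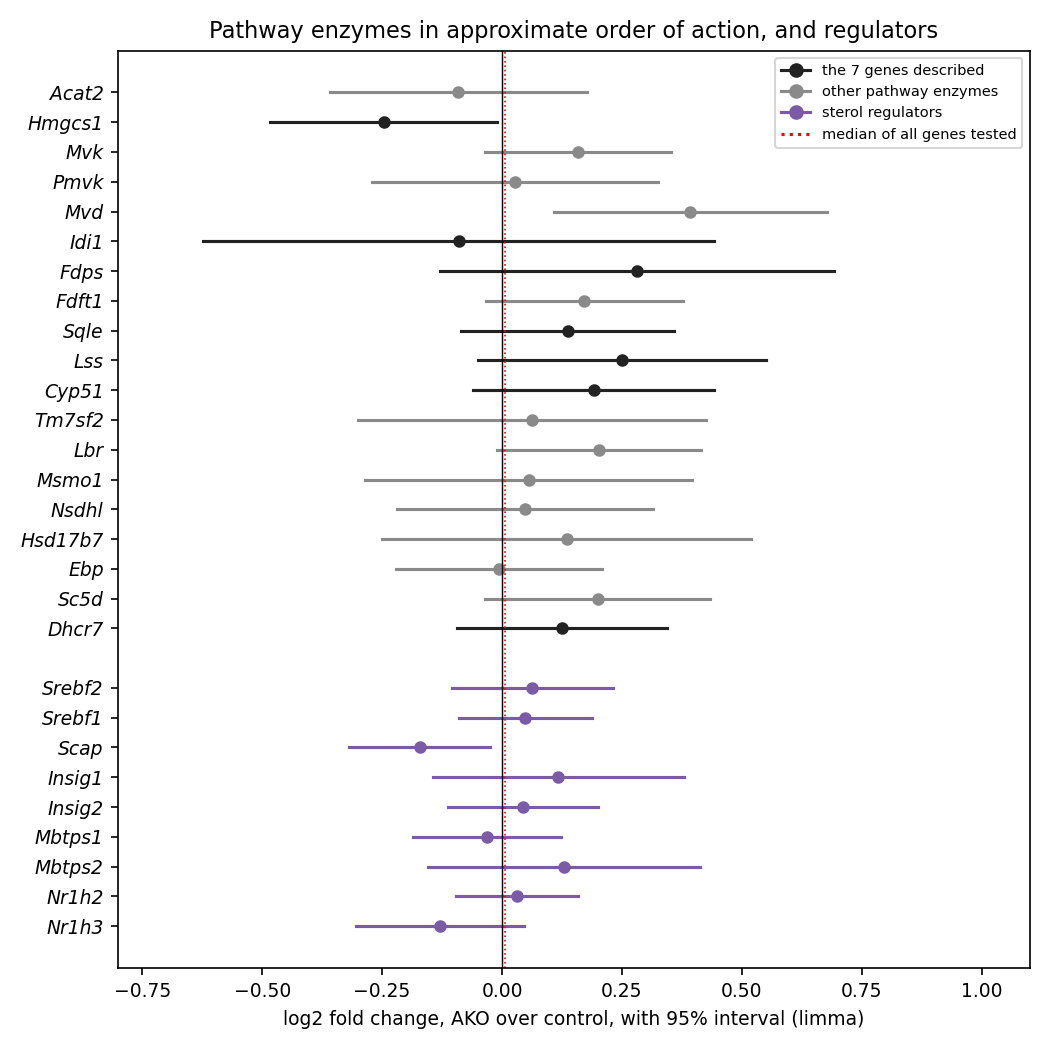
Log2 fold change of AKO over control with its 95% interval from limma, for the 7 genes (black), the other 12 enzymes (gray) in approximate order of action and 9 sterol regulators (purple), with the median of all genes tested as a dotted red line. The intervals of Hmgcs1 (-0.48 to -0.01), Mvd (0.11 to 0.68) and Scap (-0.32 to -0.02) do not cross 0 before any adjustment for the number of genes.

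Transcripts of the regulators were close to control. Srebf2, the factor that drives the pathway, had 1025, 979 and 1074 normalized counts in control and 1101, 1124 and 994 in AKO, and its groups overlapped (log2 fold change 0.06, standard error 0.07, limma adjusted p = 0.851). Insig1, which retains SCAP in the endoplasmic reticulum and is itself an SREBP target, had 6982, 6830 and 6521 in control and 8455, 7648 and 6133 in AKO. AKO replicates 1 and 2 were above all controls and replicate 3 below all of them, with a log2 fold change of 0.12 (limma, SE 0.11, adjusted p = 0.819). Scap had 1031, 1127 and 1104 in control and 989, 941 and 963 in AKO, so that all AKO samples were below all controls. Its log2 fold change was -0.17 (limma, SE 0.06, adjusted p = 0.506). Srebf1, which favors fatty acid synthesis, did not overlap either, with 13338, 13465 and 13413 in control and 13656, 14112 and 13832 in AKO, a log2 fold change of 0.05. Insig2, the proteases Mbtps1 and Mbtps2 that release SREBPs, and the liver X receptors Nr1h2 and Nr1h3 had log2 fold changes between -0.13 and 0.13, of which that of Mbtps1 changed sign with CPM scaling. Of the 9 regulators, limma called 0, as did DESeq2, edgeR and limma-voom. Before adjustment, 1 (Scap) had a limma p under 0.05 (4.69% of all genes, lower in AKO). Groups did not overlap for 2 of the 9, against 14.5% of all genes tested.

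Genes that handle sterols or share the early pathway gave no call either. Of 10 genes of sterol storage, uptake, transport and efflux, 5 were above 0 and 5 below (6 and 4 with CPM scaling). Their median log2 fold change was 0.01, and 2 had a limma p under 0.05 before adjustment (9.1% of all genes tested). The largest differences were those of Soat1, which esterifies cholesterol (log2 fold change 0.44, limma adjusted p = 0.498), Stard4, a sterol carrier (0.32, adjusted p = 0.786), and Lipa, the lysosomal acid lipase (-0.23, adjusted p = 0.362). Soat1 rested on means of 106 and 144 normalized counts. Both Soat1 and Lipa had groups that did not overlap, as did 14.5% of all genes tested. Of 11 genes that use isoprenoids for prenylation, dolichol or ubiquinone, 10 were below 0 (6 with CPM scaling), with a median of -0.08. Of all genes tested, 51.9% were above 0. Before adjustment, 1 (Dolk, -0.16) had a limma p under 0.05 (4.69% of all genes, lower in AKO). Pggt1b (-0.19) and Pdss1 (-0.15) were the other largest of that list. Of 9 genes of fatty acid synthesis, 8 were above 0, against 51.9% of all genes tested, with a median of 0.25. With CPM scaling the count was also 8, where 68.5% of all genes were above 0. The gene of that list with a p under 0.05 before adjustment was Scd2, a desaturase named after its values were seen (log2 fold change 0.33). Such a p, higher in AKO, was found for 4.41% of all genes. The largest log2 fold changes of that list were those of Acly (0.49), Acss2 (0.35) and Elovl6 (0.34). Acly had 19934, 48376 and 32728 normalized counts in control and 35899, 61727 and 39327 in AKO, with its lowest value in control replicate 1 and its highest in AKO replicate 2, as for Fdps, Sqle and Lss. Limma, DESeq2, edgeR and limma-voom called 0 genes of each of these 3 lists.

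The direction of 6 of the 7 genes was the same under all 19 alternative settings, and none of the 7 was called under any of them. Idi1 was the exception, with a log2 fold change of 0.015 without AKO replicate 3. CPM scaling gave -0.19 for Hmgcs1 and 0.34 for Fdps.

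**Figure D5:**
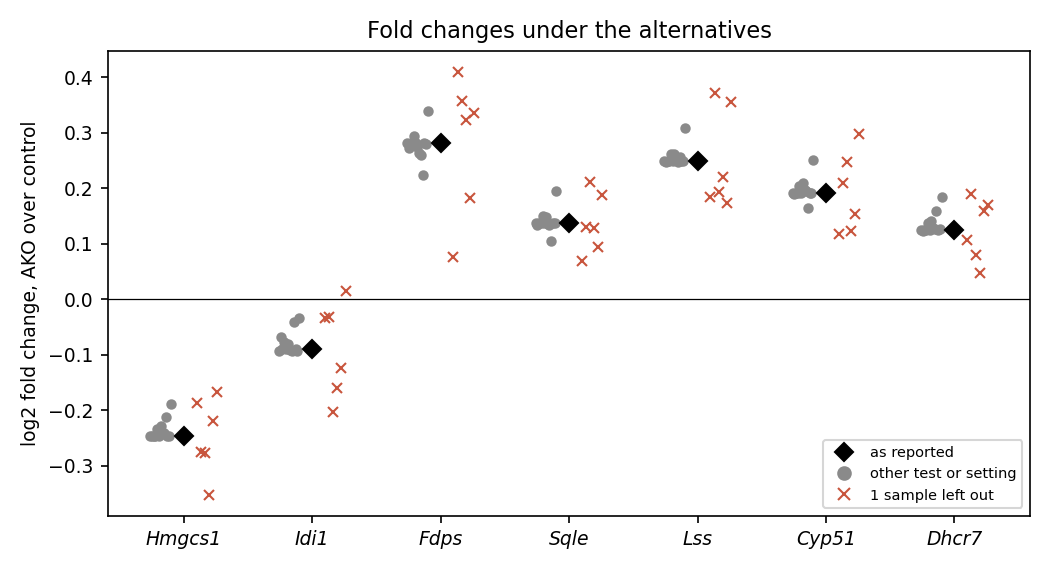
Log2 fold change of AKO over control for each gene as reported (black diamonds), under other tests and settings (gray circles) and with 1 sample left out (red crosses). Fdps moves most, from 0.08 to 0.41, and Hmgcs1 stays between -0.35 and -0.17.

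The mean of the 7 centered log2 profiles was lowest in control replicate 1 (-0.14) and highest in AKO replicate 1 (0.14), with AKO replicate 3 (-0.11) second lowest. Of 10248 other genes whose mean reached 100 normalized counts, the 10 whose values followed this profile most closely over the 6 samples were Kctd9, Ptger3, Nsmce4a, Nubp2, Pomt2, Sptlc2, Rbbp8, 1700021K19Rik, Eif4g3 and Nrarp. Their Pearson correlations ran from 0.93 to 0.97 over 6 samples that share the comparison, and as the highest of so many genes they are a description only. Sptlc2 is a subunit of serine palmitoyltransferase, which starts sphingolipid synthesis, and its log2 fold change was 0.11 (limma adjusted p = 0.737).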

How the data were processed

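RNA-Seq of iWAT from 3 control and 3 AKO samples was used, grouped by the genotype in the labels. Per the study's methods, the authors aligned reads with STAR to GRCm38.p6 (mm10 in the submitters' processing notes), counted them per gene with featureCounts on GENCODE M25 and used DESeq2. The authors deposited a signal, namely read counts divided by a size factor per sample, without division by gene length. The deposited log2 fold changes, p-values and adjusted p-values of the authors were not used. Values were whole multiples of 1 read for 100% of entries (tolerance 0.01), so reads were recovered for the count tests.

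The comparison was made with limma 3.58.1 (R 4.3.3) on log2(value + 1), with a variance trend and no block, for 13855 genes with a mean of at least 10 (adjusted p under 0.05, Benjamini-Hochberg). Adding 1 understates the change of low genes. Alternatives were pseudocounts of 0.1 and 10, other filters, TMM factors, robust limma, edgeR 4.0.16, DESeq2 1.42.0, limma-voom, a block for the replicate number, and fits that left out 1 sample. Scaling to library totals (CPM) was added after the data were seen. The tests were checked on simulated counts with changes larger than those of the 7 genes, so the check does not cover changes of the size seen here. The 7 genes and the other lists were chosen with earlier results of these data known. The 10 similar genes were named by their correlation with the mean of the 7 over the samples, and the 3 largest log2 fold changes were named for the lists of sterol handling, isoprenoid use and fatty acid synthesis. Counts of all pairs of replicates differed beyond sampling noise (chi-square over its degrees of freedom 9.86 to 20.1). Samples are pools of different mice, and p-values measure the spread between pools. Symbols were matched to GENCODE M21 (GRCm38) for positions and lengths, and all 7 matched. Also, 1 enzyme of the pathway is not reported here.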

Additional observations from a re-analysis of the deposited data

How the results depend on the processing

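With 3 samples a group, differences of the size seen here were not separable from the spread between samples, and a p above the threshold does not show that levels were equal. The number of the 7 genes called was 0 under all 19 alternatives. Their median log2 fold change of 0.14 moved by less than the spread between samples under each of them and lay between 0.08 and 0.19 with 1 sample left out. Of 132 single values, 131 kept their direction and their side of the threshold, and that of Idi1 reversed to 0.015 without AKO replicate 3 (range with 1 sample left out, -0.20 to 0.015). Idi1 could not be tested with a mean of at least 100. Over all genes, limma called 2, and the count was 5 with a mean of at least 100, 11 with robust limma, 5 with edgeR and RLE factors, 149 with DESeq2, and 0 to 3 with 1 sample left out, the causes of which were not tested. It was 0 without control replicate 1, control replicate 3 or any single AKO replicate. Same-numbered samples did not deviate together for every pair (correlations of 0.14, -0.35 and 0.24), so the numbers were not taken as a pairing. With the replicate number as a block, limma called 2 genes and DESeq2 193, with 0 of the 7 genes called by either and a median log2 fold change of 0.14 in both.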
